A study of Drosophila melanogaster with 32 samples.

Results

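The core circadian clock of Drosophila was described here through 8 genes, Clk, cyc, per, tim, vri, Pdp1, cwo and cry, which were chosen by name as the transcription factors, repressors and photoreceptor of the clock. All 8 were found among the 17737 genes of the count matrix, and all 8 passed the filter on low counts in each comparison. In the fly clock, the proteins of Clk and cyc form an activator that turns on per, tim, vri, Pdp1 and cwo. The proteins of per and tim enter the nucleus and repress this activator, VRI represses Clk and PDP1 activates it, CWO competes at the sites the activator binds, and CRY is a blue-light photoreceptor that leads to the loss of TIM in light. Transcripts of per, tim and vri are known to peak early in the night and those of Clk and cry around dawn, while cyc is known to vary little over the day.

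RNA-seq was available for 32 samples, each made from 8 whole flies pooled, all mated Drs-GFP females, an isogenic line that carries a reporter of the antimicrobial peptide gene drosomycin in all groups. Smurfs are flies in which a blue food dye has spread from the gut through the body, a sign of a leaky intestine, and non-Smurfs are flies of the same age in which it has not. There were 4 Smurf and 4 non-Smurf samples at 20 days, and 6 and 6 at each of 30 and 40 days, the 30-day Mixed samples being labelled 32 days and all other 30-day samples 30 days. Collection was Mixed (6 samples, taken in the morning after a night on dyed food, with an unknown time since the fly became a Smurf), 5h (8 samples, taken 5 hours after a Mixed collection by the study methods, Smurfs of at most 5 hours, at 30 and 40 days only) or 1d (18 samples, Smurfs of at most 24 hours). The sources do not say from which of the earlier collections the 24 hours were counted, nor when the lights came on. In non-Smurfs, 5h and 1d name only the moment of collection.

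Each age and collection was a single event, 8 in all, from which Smurfs and non-Smurfs were both taken. All 8 samples of 5h therefore came from 2 events, and the moment of day, the event and, in Smurfs, the time since transition cannot be told apart. P-values over samples treat pools of the same event as independent. In whole flies, fewer cells with a transcript and less RNA per cell cannot be told apart either, and the heads, where clock neurons and photoreceptors lie, were not separated from the body.

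Total counts ran from 12164198 to 22798065 per sample, and the 22 pairs of replicates differed by more than counting noise (chi-square per degree of freedom 6.79 to 100.04). Sums of 10 photoreceptor genes lay between 2213 and 3565 CPM (counts scaled to library size, with TMM factors) in 30 samples, and a pair of 1-day Smurf pools at 40 days lay outside, 1d-q at 737 and 1d-r at 5043. Of 8 male genes 2 were at 0 in all samples, and their sum reached at most 11.1 CPM, nearly all of it lncRNA:roX1. Among 16 Smurf pools, 3 of 40 days (1d-p, 5h-c7 and 5h-c8) had the highest sums of the 3 yolk protein genes, 12182 to 17238 CPM, within the non-Smurf range of 6712 to 24585.

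The 8 genes differed widely in level. Per kilobase of merged exons, the median over 32 samples was 64.5 CPM for cyc, 28.0 for cry, 27.8 for tim, 23.4 for cwo, 15.5 for vri and 14.6 for Pdp1. Clk and per were the lowest, at 3.49 and 3.01 CPM per kilobase, with 122 and 109 reads in their least covered sample. Neighbours in this order overlapped over samples, with 2 exceptions. The lowest sample of cyc, 44.9 CPM per kilobase, was above the highest of cry, 44.4, and the lowest of Pdp1, 9.98, was above the highest of Clk, 5.84. The most even genes were cyc and cwo, with a ratio of 1.68 between the highest and the lowest sample, and the least even were per (3.25), cry (3.23) and Clk (3.01). On the log2 CPM scale the SD over samples was 0.42 for cry, 0.40 for per, 0.36 for Clk and 0.34 for tim, against a median of 0.20 over 10527 genes, and 0.14 for cyc.

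The genes lie on 4 chromosome arms (annotation BDGP6.54, joined to the counts by gene identifier). Clk (FBgn0023076) is at chr3L:7763233-7775603, cyc (FBgn0023094) at chr3L:19813770-19815938 and Pdp1 (FBgn0016694) at chr3L:7811458-7867369, all on the minus strand. On chromosome arm 2L, tim (FBgn0014396) is at chr2L:3493986-3508119 on the minus strand and vri (FBgn0016076) at chr2L:5288944-5311223 on the plus strand. On the plus strand too are per (FBgn0003068) at chrX:2685580-2692780, cwo (FBgn0259938) at chr3R:10388258-10400752 and cry (FBgn0025680) at chr3R:19212154-19215442. Exons of other genes with a row in the count matrix overlapped them little: dyw covered 1.08% of the per exons and vib 0.475% of the cry exons, both on the opposite strand. In the newer annotation lncRNA:CR46393 covers 17.4% of the cry exons on the same strand, and this RNA had no row in the matrix.

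**Figure D1:**
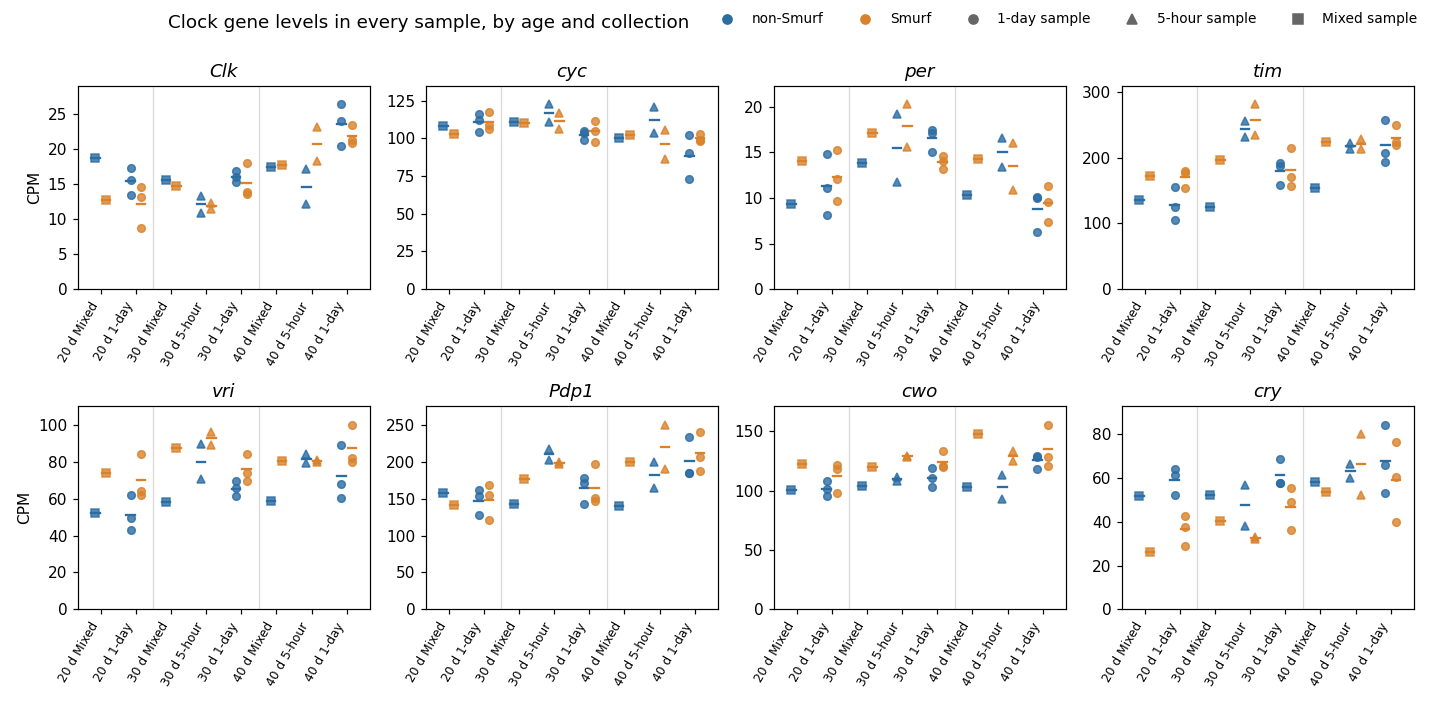
Level of the 8 clock genes in every sample, in CPM on axes that start at 0. Columns are the 8 collection events in order of age and collection, points are samples (circles 1d, triangles 5h, squares Mixed; blue non-Smurf, orange Smurf) and short lines are means. Clk points of 5h lie low at 30 days and tim points of 5h lie high there, while cry points of Smurfs lie below those of non-Smurfs of the same event at 20 and 30 days.

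The first comparison was between moments of collection, 5h against 1d, over both states with a term for each of the 6 groups. Medians given for 1d and Mixed in comparisons of moments include 20-day samples, an age with no 5h collection. The fits hold group terms for this, and the medians do not. The 5h samples had lower values of Clk and higher values of per and tim, but none of the 8 differences passed the threshold (adjusted p below 0.05) in edgeR's quasi-likelihood test, where 276 of 10529 genes (2.62%) passed, 39 of them higher and 237 lower. Of the 8 genes, 4 had an unadjusted p below 0.05, against 20.0% of all genes. The median absolute difference of the 8 was 0.19 on the log2 scale, beside 0.09 over all genes tested. Where values are said not to overlap, here and in later comparisons, the sets are small. The share of all genes that separate likewise was not counted.

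Clk, which encodes the partner of CYC in the activator, was at 10.9 and 13.3 CPM in the 5h non-Smurfs of 30 days, against 15.3, 16.0 and 16.9 in the 1d ones. In non-Smurfs of 40 days it was at 12.1 and 17.1 CPM at 5h and at 20.5, 24.0 and 26.4 at 1d. In Smurfs of 30 days it was at 11.4 and 12.3 CPM at 5h and at 13.6, 13.9 and 17.98 at 1d. These 3 sets did not overlap, while the 40-day Smurfs did, with 18.3 and 23.2 CPM at 5h and 20.9, 21.3 and 23.4 at 1d. The mean of 5h was below that of 1d in 4 of 4 sets, and the fitted log2 fold change was −0.35 ± 0.10 (SE, n = 8 against 18; edgeR adjusted p = 0.0566). DESeq2 gave the same change with an adjusted p of 0.0198 and called 7.03% of genes, and edgeR passed Clk in 4 of 32 fits when single samples were dropped (adjusted p 0.0312 to 0.156). Its partner cyc went the other way by less, from a median of 104 CPM at 1d to 109 at 5h (log2 fold change 0.12 ± 0.06, edgeR adjusted p = 0.218).

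Of the repressor pair, per was at 20.2 and 15.6 CPM in the 5h Smurfs of 30 days and at 13.2 to 14.6 in the 3 of 1d, and at 16.5 and 13.4 in the 5h non-Smurfs of 40 days against 6.23, 10.0 and 10.1 at 1d. In the other 2 sets 5h and 1d overlapped. The fit gave 0.36 ± 0.14 (edgeR adjusted p = 0.142). The partner tim was at 232 and 256 CPM in 5h non-Smurfs of 30 days and at 158, 188 and 193 in those of 1d. In Smurfs of 30 days it was at 281 and 234 CPM against 158, 171 and 215. At 40 days tim did not separate the moments, with 214 and 222 CPM at 5h against 194 to 257 at 1d in non-Smurfs, and 214 and 228 against 219 to 249 in Smurfs. The fit over all samples gave 0.24 ± 0.09 (edgeR adjusted p = 0.145).

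The other targets of the activator moved by less. The repressor gene vri had a median of 82.5 CPM at 5h and 68.5 at 1d (0.17 ± 0.08, edgeR adjusted p = 0.264), and the activator gene Pdp1 had 199 and 170 CPM (0.15 ± 0.09, adjusted p = 0.339). Both lay higher at 5h without overlap in both states at 30 days and overlapped at 40 days. The medians of cwo, which encodes a repressor at the same sites, were 119 CPM at both moments (−0.07 ± 0.06, edgeR adjusted p = 0.497). The photoreceptor gene cry was lower at 5h in both states at 30 days, at 32.0 and 33.2 CPM against 36.2 to 55.2 in Smurfs and at 37.9 and 56.9 against 57.5 to 68.7 in non-Smurfs, and overlapped at 40 days (−0.22 ± 0.12 over all, edgeR adjusted p = 0.32).

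**Figure D2:**
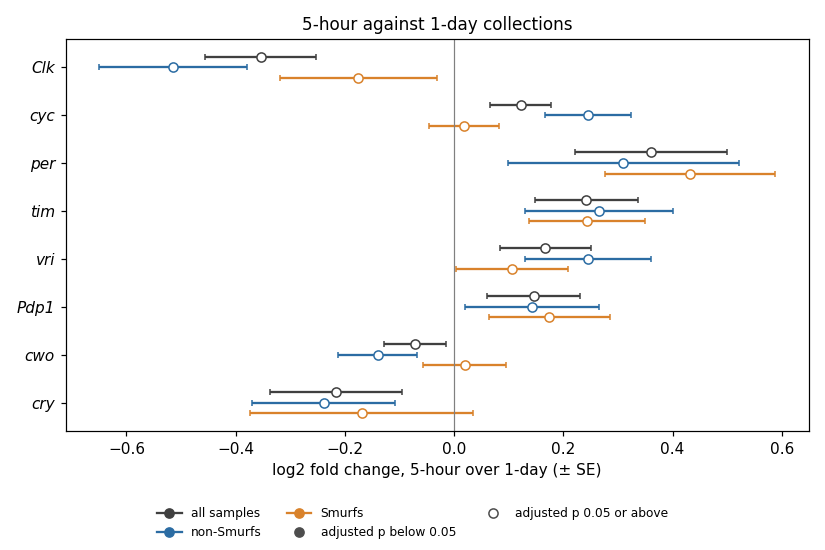
Fitted log2 fold change of 5h over 1d for each clock gene, in all samples, in non-Smurfs and in Smurfs, with bars of 1 SE; open points have an edgeR adjusted p of 0.05 or above. All points are open; Clk lies left of 0 in the 3 fits (−0.35, −0.51 and −0.18) and per and tim lie right of it.

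Non-Smurfs have no time since transition, so in them the labels 5h and 1d differ only in the moment and event of collection. There Clk differed by −0.51 ± 0.14 (edgeR adjusted p = 0.0871) and cyc by 0.24 ± 0.08 (adjusted p = 0.118), with 5 of 10260 genes called (0.0487%) and 0 of the 8, 2 of which had an unadjusted p below 0.05. In non-Smurfs DESeq2 called 590 genes, and Clk was among them (adjusted p = 0.0138). The pools of non-Smurfs also differed in eggshell transcripts, with a median log2 fold change of −2.47 over the 14 eggshell genes. Of these edgeR called 0, and 8 had an unadjusted p below 0.05, beside 23.5% of all genes. At 40 days they summed to 69.2 and 43.1 CPM at 5h and to 496, 1554 and 2940 at 1d. At 30 days the moments overlapped. The part of the eggshell genes in the values of the clock genes was not tested. In Smurfs the largest difference was in per, 0.43 ± 0.16 (edgeR adjusted p = 0.336), followed by tim at 0.24 ± 0.11 and Clk at −0.18 ± 0.14. There edgeR called 4 of 10353 genes (0.0386%) and 0 of the 8, 2 of which had an unadjusted p below 0.05. DESeq2 called 210 genes, but none of the 6 clock genes for which it gave an adjusted p. Without the 3 libraries of high yolk counts, tim differed by 0.49 and cry by −0.52 in Smurfs (adjusted p = 0.419 and 0.715).

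Whether the moments differed by state was tested directly. The difference between Smurfs and non-Smurfs in the 5h-to-1d change was 0.34 ± 0.20 for Clk and −0.24 ± 0.11 for cyc, and edgeR passed 0 of the 8 genes and 0 of 10529 in all (0%), with 1 of the 8 and 1350 of all genes at an unadjusted p below 0.05 and 29 genes, none of the 8, passed by DESeq2. The same test between ages gave −0.51 ± 0.15 for tim, whose 5h-to-1d change was larger at 30 than at 40 days. Its rank by p was 165 of 10529 and its edgeR adjusted p 0.236 (DESeq2 0.0841). No gene was called in that test either (0%), with 1 of the 8 and 1229 of all genes at an unadjusted p below 0.05 and 78 genes, none of the 8, passed by DESeq2.

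The Mixed samples were set against both other moments. Against Mixed, tim was higher at 5h by 0.37 ± 0.12 (edgeR adjusted p = 0.0676), from a Mixed median of 163 CPM (lowest 125, highest 224) to a 5h median of 230 (214 to 281). In non-Smurfs the 3 Mixed values, 125, 136 and 154 CPM, lay below all 4 of 5h (214 to 256). None of the 8 genes was called by edgeR, where 646 of 10529 genes were (6.14%), and 3 of the 8 had an unadjusted p below 0.05. DESeq2 passed tim (adjusted p = 0.0238), where the 6 alternative fits, DESeq2 among them, called 509 to 818 genes. Clk differed by −0.29 ± 0.13 and Pdp1 by 0.25 ± 0.11. Between Mixed and 1d the largest difference was in cry, −0.24 ± 0.13 (edgeR adjusted p = 0.539), the others lay between −0.13 and 0.14, and none of the 8 was called or had an unadjusted p below 0.05, where 24 genes were called (0.228%); DESeq2 passed none of the 8. As a description, the log2 ratio of tim to Clk counts had a median of 3.42 at 1d (2.96 to 4.12), 3.39 in Mixed (2.85 to 3.74) and 4.18 at 5h (3.20 to 4.61). The labels date the 30-day Mixed samples to 32 days and the 5h samples to 30 days, so the contrast with Mixed also differs in age there. The 14 eggshell genes summed to 1020 CPM in median at 1d, 1151 in Mixed and 317 at 5h, with ranges that overlapped. Over all samples edgeR called 0 of the 14 in each of the 3 contrasts. Of them 1 had an unadjusted p below 0.05 for 5h against 1d and 1 for 5h against Mixed. Of 5 neuronal genes, edgeR called 2 lower at 5h against Mixed (median log2 fold change −0.36), with 4 at an unadjusted p below 0.05. It called 1 of the 5 higher in Mixed against 1d (median 0.26) and 0 at 5h against 1d. Of 10 photoreceptor genes it called 0 in each contrast. The part of these marker genes in the values of the clock genes was not tested.

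The second comparison was of Smurfs with non-Smurfs, the main contrast of the study, over 16 samples each. Of the 8 clock genes 2 rose, vri and cwo, where 2286 of 10052 genes were called (22.7%) and 1148 were called higher (11.4%), so the share of clock genes called was close to that of all genes. Both encode repressors. The photoreceptor gene cry had lower values in Smurfs at just above the threshold, and Clk, cyc, per and Pdp1 differed by at most 0.09 on the log2 scale.

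The gene cwo ran from 92.9 to 129 CPM in non-Smurfs, with a median of 108, and from 98.0 to 156 in Smurfs, with a median of 124. The groups overlapped, 15 of 16 Smurfs lay above the non-Smurf mean, and the Smurf mean was the higher in 8 of 8 events. The log2 fold change was 0.22 ± 0.05 (edgeR adjusted p = 0.00262), and it was called in 32 of 32 fits that left out 1 sample. The gene vri ran from 43.0 to 89.3 CPM in non-Smurfs (median 63.6) and from 61.8 to 100.05 in Smurfs (median 80.7), and 14 of 16 Smurfs and 7 of 8 events lay on the higher side. Its change was 0.28 ± 0.09 (edgeR adjusted p = 0.0173), again called in 32 of 32 such fits. Without the 6 Mixed samples 1119 genes were called, cwo passed at 0.18 (edgeR adjusted p = 0.0369) and vri did not at 0.23 (0.134). Within a single moment none of the 8 was called, where 1099 genes were called in 1d samples, 0 in 5h samples and 0 in Mixed samples. In 1d samples cwo differed by 0.14 (edgeR adjusted p = 0.251), vri by 0.30 (0.106) and cry by −0.40 (0.0967). In 5h samples cwo differed by 0.31 (0.0987), and in Mixed samples vri and tim by 0.55 each (0.0777 and 0.0975).

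In non-Smurfs cry ran from 37.9 to 84.2 CPM with a median of 57.9, and in Smurfs from 26.1 to 79.9 with a median of 41.4. Only 3 of 16 Smurfs were above the non-Smurf mean, and the Smurf mean was lower in 7 of 8 events, 5 of the 7 at 20 or 30 days. The fit gave −0.35 ± 0.13 (edgeR adjusted p = 0.0526; DESeq2 0.0411). With the collection event as a block, in which Smurfs are compared with the non-Smurfs of the same event, cry fell by 0.39 (adjusted p = 0.0062), tim rose by 0.20 (0.0237), and cwo and vri passed as well, where 30.2% of genes were called. Without the 3 Smurf libraries of high yolk counts cry fell by 0.48 (adjusted p = 0.00427). The higher value of tim was seen in 8 of 8 events, by 0.01 to 0.65, with medians of 190 CPM in non-Smurfs and 214 in Smurfs (0.17 ± 0.11 without the block, edgeR adjusted p = 0.27).

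**Figure D3:**
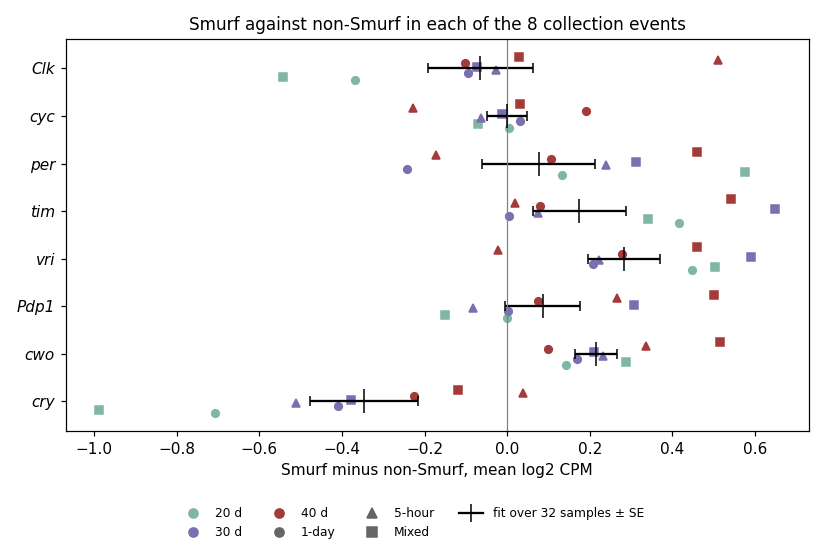
Smurf minus non-Smurf mean log2 CPM of each clock gene in each of the 8 collection events (colour by age, shape by collection; the Mixed events hold 1 sample of each state), with the fit over 32 samples and its SE in black. All 8 points of cwo and of tim lie right of 0, and 7 of 8 points of cry lie left of it, the lowest at 20 days.

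Of marker genes of other tissues, edgeR called 8 of 14 eggshell and 3 of 3 yolk protein genes lower in Smurfs, 2 of 5 neuronal genes higher and 0 of 10 photoreceptor genes, none of which had an unadjusted p below 0.05. The 14 eggshell genes summed to 1306 CPM in median in non-Smurfs (43.1 to 3883) and to 145 in Smurfs (2.48 to 1341). The yolk protein genes summed to 13989 CPM (6712 to 24585) and 3776 (1417 to 17238), the 10 photoreceptor genes to 2606 (2213 to 3219) and 2976 (737 to 5043), and 5 neuronal genes to 144 (117 to 202) and 175 (116 to 266). No gene of these 4 lists was at 0 in all samples, and their part in the differences of the clock genes was not tested.

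Taken by age, the Smurf difference of cry was largest at 20 days, where the Smurf values of 26.1, 29.0, 37.8 and 42.7 CPM all lay below the non-Smurf values of 51.7, 52.3, 61.2 and 63.9. There cry fell by 0.74 ± 0.20 (edgeR adjusted p = 0.0172) and vri rose by 0.48 ± 0.14 (adjusted p = 0.0247), from 43.0, 49.3, 51.9 and 61.7 CPM to 61.8, 63.9, 73.7 and 84.3, where 1160 genes (11%) were called. Both calls depended on single samples: cry was lost without M-4, 1d-a, 1d-b or 1d-d (adjusted p 0.0533 to 0.0808), and vri without M-1, M-4, 1d-b, 1d-c or 1d-e (0.0541 to 0.105). The difference of tim at 20 days was 0.40 ± 0.17 (edgeR adjusted p = 0.133). With the event as a block its edgeR adjusted p was 0.0441. The 7 alternative fits at 20 days, the block among them, called 234 to 1417 genes. At 30 days only cwo was called, at 0.23 ± 0.07 (edgeR adjusted p = 0.0333), where 1562 genes (14.8%) were, and it was lost in 8 of the 32 fits without 1 sample (up to 0.0932). The Smurfs of 30 days ran from 120 to 133 CPM of cwo and the non-Smurfs from 103 to 119.

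At 40 days edgeR called none of the 8 genes and 5 of 10529 (0.0475%), and DESeq2 called none of the 8 and 86 in all. The difference of cwo was 0.25 ± 0.07, as large as at 30 days (edgeR adjusted p = 0.168, the 1 of the 8 with an unadjusted p below 0.05), and that of cry was −0.09 ± 0.16. The change of the Smurf difference from 20 to 40 days was tested directly and was 0.65 ± 0.26 for cry (edgeR adjusted p = 0.285). It passed for none of the 8, with cry the 1 at an unadjusted p below 0.05, where 27 genes (0.256%) passed, and DESeq2 passed none of the 8.

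The third comparison was of age within each state. In Smurfs, 5 of the 8 genes rose from 20 to 40 days, namely Clk, Pdp1, cry, tim and cwo, where 1821 of 10353 genes were called (17.6%) and 1090 were called higher (10.5%). In non-Smurfs of the same ages none of the 8 was called by edgeR, where 194 of 10260 genes were (1.89%), with 3 of the 8 at an unadjusted p below 0.05, and tim and vri were called by DESeq2, where 5.25% of genes were. The change of the Smurf difference from 20 to 40 days, tested above, compares these rises between states and passed for none of the 8. Between 20 and 30 days none was called in either state by edgeR or DESeq2, where edgeR called 1 gene in non-Smurfs (0.00975%) and 1 in Smurfs (0.00966%), with 3 of the 8 at an unadjusted p below 0.05 in each. The 20-day samples hold no 5h collection, so these contrasts also differ in the make-up of moments.

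In Smurfs Clk was at 8.75, 12.8, 13.1 and 14.5 CPM at 20 days and at 17.8 to 23.4 in the 6 samples of 40 days, with no overlap. It rose by 0.75 ± 0.15 (edgeR adjusted p = 0.00723) and was called in 16 of 16 fits without 1 sample. Pdp1 was at 121, 141, 154 and 168 CPM and at 188 to 250, with no overlap (0.53 ± 0.12, edgeR adjusted p = 0.0104, called in 16 of 16). The gene cry was at 26.1 to 42.7 CPM and at 39.7 to 79.9 (0.83 ± 0.21, edgeR adjusted p = 0.0173), and the call was lost without M-4 (0.0601) or 1d-d (0.0696). The lowest 40-day value of cry belonged to 1d-q, the library with the lowest photoreceptor sum, and without it the rise was 0.93. The gene tim was at 154 to 180 CPM and at 214 to 249, with no overlap (0.40 ± 0.12, edgeR adjusted p = 0.0332), and cwo at 98.0 to 123 and 121 to 156 (0.23 ± 0.08, adjusted p = 0.0486). The calls of tim and cwo were lost with collection as a term (adjusted p = 0.0658 and 0.0746), that of tim in 5 and that of cwo in 14 of 16 fits without 1 sample. Without Mixed samples, and also without 1d-p, 5h-c7 and 5h-c8, only Clk and Pdp1 passed (edgeR adjusted p 0.0213 and 0.0397, and 0.0424 and 0.0432). Calls over all genes fell too, from 1821 in the main fit to 1074 and 375 in these fits. Yolk sums in Smurfs ran from 1917 to 4725 CPM at 20 days and from 2435 to 17238 at 40 days, where 3 of 6 pools were at 12182 or above, and eggshell sums had medians of 145 and 595. In this contrast edgeR called 0 of 3 yolk, 0 of 14 eggshell, 0 of 10 photoreceptor and 0 of 5 neuronal genes. Of these lists 2, 0, 0 and 1 genes had an unadjusted p below 0.05, and their part in the rise was not tested.

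The 1d samples allow ages to be compared at a single moment, with 3 samples per age, a comparison added after the values were seen. In non-Smurfs of 1d, Clk was at 13.4, 15.6 and 17.2 CPM at 20 days and at 20.5, 24.0 and 26.4 at 40 days, a rise of 0.62 (edgeR adjusted p = 0.0324). In them tim was at 105, 126 and 156 CPM and at 194, 207 and 257, a rise of 0.78 (adjusted p = 0.031), and cwo rose by 0.31 (adjusted p = 0.0488), where 4.84% of genes were called. The planned fits over all moments gave 0.27 for Clk (adjusted p = 0.48) and 0.17 for cwo (0.314) in non-Smurfs. In Smurfs of 1d the differences were 0.84 for Clk, 0.50 for Pdp1, 0.68 for cry and 0.43 for tim, beside 0.62, 0.45, 0.20 and 0.78 in non-Smurfs of 1d, and in Smurfs none of the 8 was called (edgeR adjusted p 0.0832 for Clk and at least 0.104 for the others), where 0.359% of genes were. Over all moments the rise of tim in non-Smurfs was 0.67 ± 0.18 (edgeR adjusted p = 0.0643; DESeq2 0.00673), from 105, 126, 136 and 156 CPM to 154 to 257, and that of vri was 0.51 ± 0.14 (0.0774; DESeq2 0.0156). The rise of tim passed in edgeR without the Mixed samples (0.76, adjusted p = 0.0399). For non-Smurfs over all moments edgeR called 1 of 10 photoreceptor genes higher, and 3 had an unadjusted p below 0.05, beside 16.4% of all genes. It called 0 of 3 yolk, 0 of 14 eggshell and 0 of 5 neuronal genes, with 1, 2 and 1 at an unadjusted p below 0.05. The part of these marker genes in the rises was not tested. The gene per did not follow tim: at 1d its mean was 11.3 ± 3.34 CPM (SD, n = 3) at 20 days, 16.5 ± 1.28 at 30 days and 8.78 ± 2.21 at 40 days in non-Smurfs, and 12.3 ± 2.78, 13.9 ± 0.690 and 9.39 ± 1.99 in Smurfs.

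**Figure D4:**
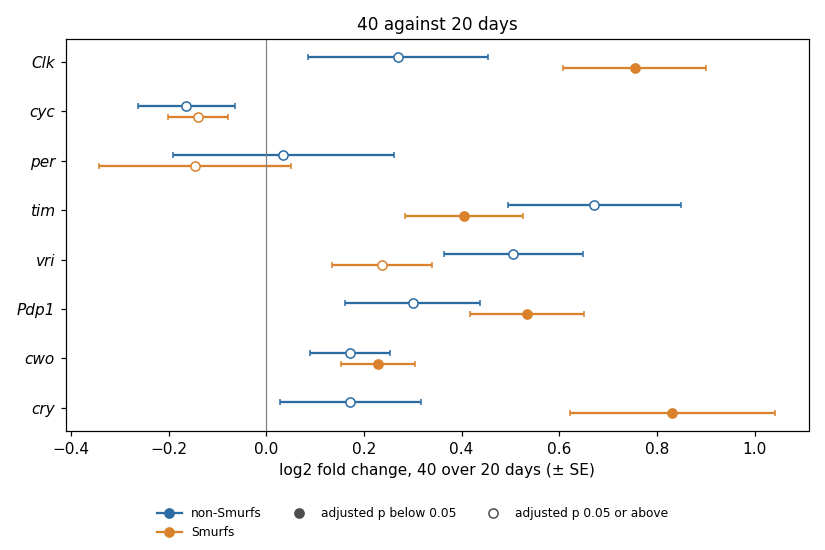
Fitted log2 fold change of 40 over 20 days for each clock gene in non-Smurfs and in Smurfs, with bars of 1 SE; filled points have an edgeR adjusted p below 0.05. In Smurfs 5 points are filled (Clk, tim, Pdp1, cwo and cry), in non-Smurfs none. The direct test of the difference between the states passed for none of the 8 genes.

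The genes also varied together over samples. Of 28 pairs, 14 had a correlation of log2 CPM past the threshold after adjustment (permutation test of 100000 resamples, two-sided, Benjamini-Hochberg over 28 pairs), 10 positive and 4 negative, and 11 of the 14 also passed by the rank correlation rho, those of Clk with Pdp1 and cwo and of cyc with Pdp1 being lost. Samples share events, groups and library scaling, and the permutation treats them as exchangeable. Over 32 samples tim followed vri (r = 0.87, rho = 0.84) and Pdp1 (r = 0.84, rho = 0.89), each with a permutation p of 1e-05, the smallest the resamples can give (adjusted p of r 5.6e-05, of rho 7e-05). Without the 2 samples farthest from the median of tim, r was 0.83 and 0.82. Once the means of the 6 groups were removed r was 0.80 and 0.84, and within the 18 samples of 1d it was 0.85 and 0.88. Among 9669 genes with a mean log2 CPM of at least 0, vri and Pdp1 were the first and second most like tim, and per, its partner, was in place 2666 with r = 0.22 (rho = 0.20; permutation p = 0.221 and 0.261, adjusted 0.325 and 0.407).

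Clk ran with cry (r = 0.72, rho = 0.64; permutation p = 1e-05 and 0.00015, adjusted 5.6e-05 and 0.0007) and against cyc (r = −0.78, rho = −0.78; both p = 1e-05, adjusted 5.6e-05 and 7e-05). Without the 2 samples farthest from the median of Clk these were 0.64 and −0.77, after group means 0.57 and −0.79, and within 1d 0.73 and −0.77. Among the same 9669 genes, ordered from the most to the least like Clk, cry was only in place 152 and cyc in place 9587. Clk and tim gave r = 0.20 over all samples (rho = 0.15; permutation p = 0.273 and 0.42, adjusted 0.382 and 0.56), 0.67 within 1d and −0.04 after group means. Outside the 8, the genes most like tim by Pearson's r over 32 samples were l(3)72Dp (0.82), CG6972, Jwa, Rho1 and sordd1 (0.78), and those most like Clk were CG4928 (0.89), CG4607, Pde6, Fas2 and Dh44-R2 (0.85), of 9662 genes compared. Once group means were removed these were 0.58 to 0.76 for tim and 0.73 to 0.79 for Clk.

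**Figure D5:**
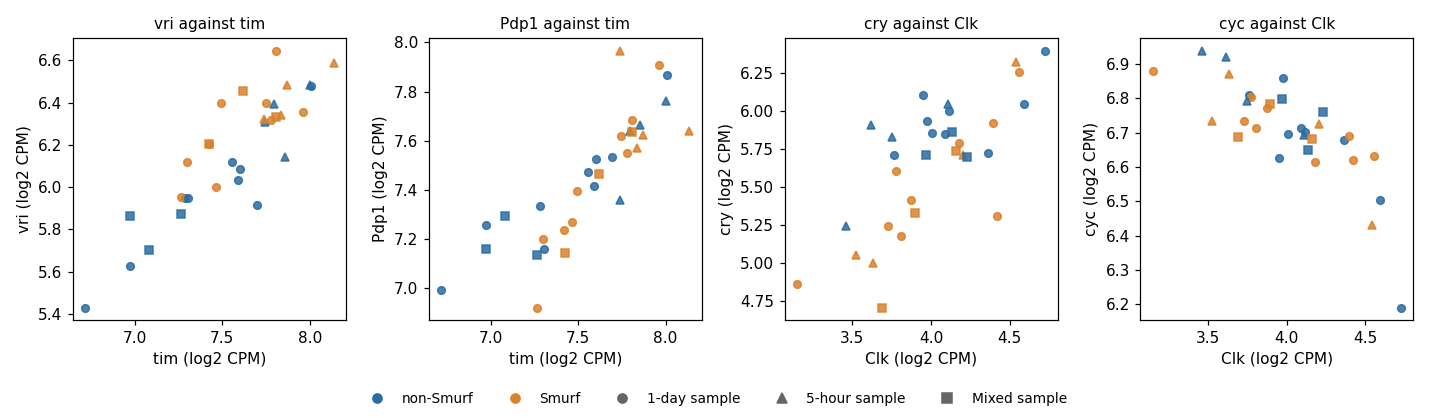
Log2 CPM of vri and Pdp1 against tim, and of cry and cyc against Clk, in 32 samples (colour by state, shape by collection). The first 3 panels rise (r = 0.87, 0.84 and 0.72) and the last falls (r = −0.78).

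Other genes of the clock pathway were taken from 3 lists of 27 genes in all, 26 of which matched a row and were tested. Of 16 regulators that act on clock proteins (kinases, phosphatases, ubiquitin ligases and cofactors), 1 rose and 1 fell at 5h against 1d, with a median change of 0.03 beside −0.01 over all genes, of which 2.62% were called. Usp8, a deubiquitinase, rose by 0.14 ± 0.03 (edgeR adjusted p = 0.0333), from a median of 94.8 CPM to 105, and nej, which encodes the histone acetyltransferase CBP, fell by 0.26 ± 0.06 (adjusted p = 0.0233), from 428 to 353. Of 6 output and neuropeptide genes only Slob, which encodes a partner of the Slowpoke potassium channel, rose, by 0.61 ± 0.17 (adjusted p = 0.049), from 21.0 to 32.1 CPM, and the median of the 6 was 0.01. Of 4 translation and RNA regulators tested, none was called, with a median of −0.08; Atx2 alone had an unadjusted p below 0.05. Against Mixed, where 6.14% of all genes were called, Usp8 again rose and nej fell, and Atx2 and lark, RNA-binding regulators, fell by 0.19 and 0.23 (edgeR adjusted p = 0.0169 and 0.0144).

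In Smurfs, 1 of the 16 regulators of clock proteins rose, jet, which encodes the ubiquitin ligase component that acts on TIM in light, by 0.18 ± 0.05 (edgeR adjusted p = 0.0149), from a median of 14.8 CPM to 16.5. Of the output genes, Pdf, the neuropeptide of clock neurons, rose by 0.39 ± 0.13 (adjusted p = 0.0326) from a low level of 1.44 CPM to 1.99, and Cyp4d21, a cytochrome P450 gene, fell by 0.96 ± 0.25 (adjusted p = 0.00604), from 2.14 to 1.07 CPM. None of the 4 translation and RNA regulators was called or had an unadjusted p below 0.05. Of the 26 genes 3 were thus called, against 22.7% of all genes. The medians of the 3 lists were −0.005, −0.03 and −0.02 on the log2 scale, beside −0.01 over all genes. Between 20 and 40 days in Smurfs 1 of the 26 genes was called, against 17.6% of all genes, namely Pdfr, the receptor of Pdf, which rose by 0.74 ± 0.16 (edgeR adjusted p = 0.00938), and in non-Smurfs none was, against 1.89% of all genes, with 5 at an unadjusted p below 0.05.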

How the data were processed

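Libraries were made by the authors with a stranded mRNA kit and sequenced in paired-end mode; no reads were filtered, reads were aligned with HISAT2 on BDGP6.95 and counted with featureCounts, whose strand and multi-mapping settings are not given in the sources used here. The deposited values are raw counts per gene and sample, with no pooling. Samples were grouped by their labels. Counts were scaled by TMM, filtered with filterByExpr and tested with edgeR 4.0.16 (quasi-likelihood, R 4.3.3), with Benjamini-Hochberg adjustment over all genes tested and a threshold of 0.05; DESeq2 1.42.0 was an alternative. Log2 CPM used a prior count of 2. The labels do not say that pools came from separate cultures, so p-values measure the spread between these pools. Alternatives were RLE factors, no filter, a minimum of 10 counts per sample, subsets of samples, the collection event as a block, collection as a term, and leaving out each sample. Scripts were tested on simulated counts. All 8 clock genes were named in the text, list genes where called in the 5h or Smurf contrast, and the 5 genes most like tim and Clk; genes called in other contrasts were added after their values were seen. The members and lists were chosen with earlier results of these data known. Correlations were tested with numpy 2.4.6. No sequences were printed.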

Additional observations from a re-analysis of the deposited data

Results flagged for a closer look

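Of 48 sets of values, 8 genes in 6 groups of 4 or 6 samples, 3 held a sample far from the others by Dixon's test, about as many as chance flags at 1 in 20 sets. In 40-day Smurfs, cyc was at 86.2 CPM in 5h-c8, below the 98.2 to 106 of the other 5. In the same group vri was at 100.05 CPM in 1d-r, above the 79.6 to 81.7 of the others. The photoreceptor sum was highest in 1d-r and lowest in 1d-q, where vri was at 81.7 CPM. In 20-day Smurfs cwo was at 98.0 CPM in 1d-d, below the 118 to 123 of the other 3.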

How the results depend on the processing

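Over 128 results of the 8 genes and 4224 alternative values, no call reversed; 66 calls were lost and 36 gained, and 131 values changed sign where neither fit called the gene. RLE factors changed no call of the 8 genes. Besides fits without 1 sample, calls were lost with subsets of samples, with no filter (cwo at 30 days, adjusted p = 0.0832, and cwo with age in Smurfs) and with collection as a term, and gained with DESeq2, the event as a block, the 1d samples and subsets.

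Genes called at 5h against 1d over all samples became 168 with no filter, 668 with DESeq2, 98 with 30 and 40 days only and 49 without 1d-p, 5h-c7 and 5h-c8. For Mixed against 1d they were 149 with DESeq2 and 47 with 30 and 40 days only. In non-Smurfs, 5h against 1d gave 2 with at least 10 counts in every sample, 590 with DESeq2 and 13 without Mixed. In Smurfs it gave 12 with RLE, 210 with DESeq2, and 0 without Mixed or without the 3 libraries. DESeq2 called 29 and 78 genes in the interactions of collection with state and age.

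Smurf against non-Smurf counts were 1119 without Mixed, 1099 in 1d only, and 0 in 5h only and in Mixed only. By age, without Mixed, they were 234 at 20, 601 at 30 and 0 at 40 days. At 40 days they were 86 with DESeq2, 44 with the event as a block and 109 without the 3 libraries. The state by age interaction gave 1 with no filter, 4 with at least 10 counts in every sample, 136 with DESeq2, 6 with the block, and 0 without Mixed or without the 3 libraries.

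For 40 against 20 days, non-Smurfs gave 528 with DESeq2, 126 without Mixed, 96 without 5h and 493 in 1d only, and Smurfs gave 1074 without Mixed, 620 without 5h, 37 in 1d only and 375 without the 3 libraries. For 30 against 20 days, non-Smurfs gave 59 with DESeq2, 2 without Mixed, 3 with collection as a term, 6 without 5h and 2 in 1d only, and Smurfs gave 4 with DESeq2.

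Leaving out 1 sample, counts ran from 94 to 1062 (5h against 1d, all), 367 to 928 (5h against Mixed), 1 to 95 (Mixed against 1d), 0 to 452 and 0 to 91 (5h against 1d in non-Smurfs and Smurfs), 0 to 5 and 0 to 99 (interactions of collection with state and age), 578 to 1289 and 0 to 215 (state at 20 and 40 days), 0 to 72 (state by age), 39 to 409 and 1 to 7 (non-Smurfs, 40 and 30 against 20 days) and 463 to 2622 (Smurfs, 40 against 20 days). The causes were not tested. The labels share no replicate numbers across states, so states were matched only by collection event; that block added the calls of tim (0.20, adjusted p = 0.0237) and cry (−0.39, 0.0062) over all samples and of tim at 20 days (0.0441). Depth limits per and Clk most, at 109 and 122 reads in the least covered sample.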
